A study of Mus musculus with 11 samples.

Results

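The conjugating enzymes described here are the UDP-glucuronosyltransferases (Ugt), the cytosolic sulfotransferases (Sult) and the glutathione S-transferases (Gst), measured in the liver of newborn mice. They were taken as every array probe whose gene name in the scanner files starts with Ugt1, Ugt2 or Ugt3, with Sult1 to Sult5, or with Gsta, Gstm, Gstt, Gstp, Gstk, Gstz or Gsto. This gave 54 of 41174 distinct probes, 18 for Ugt, 12 for Sult and 24 for Gst, which read 14, 10 and 19 genes (43 in all). Of the 54 probes, 51 were above background in at least 1 whole group and were tested, and each of the 43 genes kept a tested probe. The series compared livers in which Notch signalling was switched on with livers in which it was not. Mutant pups carried the AFP-Cre transgene, in which the promoter of alpha-fetoprotein, active in fetal liver cells, drives Cre, together with the Rosa26-lsl-NICD allele, whose stop cassette Cre excises, after which the cells make the intracellular domain of Notch. Control pups carried Rosa26-lsl-NICD alone. All pups were of a hybrid 129 and C57BL/6 background, and with no Cre-only pups the effects of Cre and of NICD cannot be told apart. Whole-liver RNA was hybridised in 1 colour from 3 mutants and 3 controls on day 2 after birth and from 3 mutants and 2 controls on the day of birth (day 0), 11 arrays in all. The labels give separate samples but do not say that each came from its own litter, so the p-values measure the spread between these samples.

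The 3 classes carry out the main conjugation reactions of the liver. Ugt enzymes of the endoplasmic reticulum attach glucuronic acid, from UDP-glucuronic acid, to bilirubin, steroids, bile acids and drugs. Sult enzymes attach sulfate, from the donor PAPS, to phenols, catecholamines, hormones and sterols, and Gst enzymes attach glutathione to electrophilic compounds and bind hydrophobic ones. Many of these genes are expressed at a low level in fetal liver and rise around birth, and in adult liver hepatocytes are their main site of expression.

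Several members are close relatives, so the probe sequences that resemble each other were examined first. Over the 495 pairs of member probes within a class, 2 pairs shared a stretch of at least 20 aligned bases with at least 80% identity. The probes of the alpha class genes Gsta1 and Gsta2 on chromosome 9 matched at 27 of 28 bases, and those of Ugt2b37 and Ugt2b5 on chromosome 5 at 18 of 21. They are shown because a transcript could in part bind the probe of its relative. Capitals mark the bases that differ, in probe orientation, 5′ to 3′.
Gsta1: catgtatTcagaaggtattttagatctg
Gsta2: catgtatAcagaaggtattttagatctg
Ugt2b37: CacatgaaTGaactttcagcc
Ugt2b5: TacatgaaCAaactttcagcc
Binding between relatives was not tested.

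Promoter windows from RefSeq (build GRCm38.p6) were held for 38 of the 43 genes. Among them, 4 genes of 1 cluster on chromosome 5, Ugt2b5, Ugt2b36, Ugt2b37 and Ugt2b38, had the same order of group means, highest in day 2 controls, then day 2 mutants, then day 0 mutants, and lowest in day 0 controls. The order was not particular to these 4, since Sult1c2 and both probes of Gstp1, which lie outside the cluster, had it too. In 3 of the 4, day 0 mutants were above day 2 mutants without mutant day 0 replicate 3, an array that stands apart as described with the signals, with a change from day 0 to day 2 of -0.40 for Ugt2b37, -0.095 for Ugt2b38 and -0.22 for Ugt2b5. The windows of the 4 cluster genes were compared after those values were seen. The 250 bases before the start of Ugt2b37, Ugt2b38 and Ugt2b5 held an identical run of 62 bases, and all 4 windows held a run of 22 bases in common. Neither run was found on either strand in any other of 32851 promoter windows. All 4 genes lie on the minus strand, at chr5:87254789-87255038 for the Ugt2b37 window, chr5:87424204-87424453 for Ugt2b38, chr5:87140341-87140590 for Ugt2b5 and chr5:87092556-87092805 for Ugt2b36. Capitals mark the 62-base run in the first 3 windows and the 22-base run in the last.
Ugt2b37: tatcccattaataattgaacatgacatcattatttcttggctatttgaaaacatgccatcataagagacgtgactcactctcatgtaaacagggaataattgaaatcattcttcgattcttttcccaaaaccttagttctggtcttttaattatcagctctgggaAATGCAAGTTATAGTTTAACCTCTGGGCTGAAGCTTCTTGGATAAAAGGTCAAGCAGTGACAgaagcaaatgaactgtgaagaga
Ugt2b38: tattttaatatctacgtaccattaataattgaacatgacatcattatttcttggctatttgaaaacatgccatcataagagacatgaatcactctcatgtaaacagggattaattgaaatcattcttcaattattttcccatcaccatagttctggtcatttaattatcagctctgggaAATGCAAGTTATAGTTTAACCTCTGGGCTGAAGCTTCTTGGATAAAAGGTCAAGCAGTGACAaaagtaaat
Ugt2b5: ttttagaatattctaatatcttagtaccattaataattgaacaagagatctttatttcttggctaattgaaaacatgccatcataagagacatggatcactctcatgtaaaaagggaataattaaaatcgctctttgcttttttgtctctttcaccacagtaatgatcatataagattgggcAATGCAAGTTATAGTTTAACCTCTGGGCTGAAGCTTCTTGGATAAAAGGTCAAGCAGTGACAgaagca
Ugt2b36: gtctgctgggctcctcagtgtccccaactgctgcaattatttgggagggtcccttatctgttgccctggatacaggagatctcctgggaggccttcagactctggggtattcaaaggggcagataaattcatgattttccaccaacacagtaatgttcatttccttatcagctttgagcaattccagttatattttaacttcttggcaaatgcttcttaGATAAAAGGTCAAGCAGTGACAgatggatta
4 short motifs were also searched on both strands in the windows of 300 bases. The core of the Rbpj site, TGGGAA, through which NICD acts, was held by 12 of 48 member windows (25%, against 25.6% of all windows). In the Ugt2b37 and Ugt2b38 windows it occurred at 2 places each, 129 and 90 bases before the start of Ugt2b37 and 115 and 76 bases before that of Ugt2b38, and in both the second ends on the first base of the 62-base run. The windows of Ugt2b5 and Ugt2b36 did not hold it, and that of Ugt2b34 did, 159 bases before the start. In all, 3 of 7 Ugt2b windows held it (42.9%). The antioxidant response element core of Nfe2l2, TGACNNNGC, was held by 3 of 48 member windows (6.25%, against 12.4%), all of them Gst windows. The core of the Ahr and Arnt element, GCGTG, was held by 10 of 48 (20.8%, against 32.4%) and by 0 of the 12 Ugt windows. The Hnf1 site was found in 0 of 48 (against 0.00913%). A match describes the letters of these windows and says nothing of binding.

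Signals are given as log2 of the processed signal minus the log2 of that array's 75th percentile, so that 0 is the level of the 75th percentile spot, and values of different probes are not compared with each other. The 75th percentile ran from 608 to 1302 signal units. Mutant day 0 replicate 3 stood apart: 1162 probes lay at least 2-fold above and 818 at least 2-fold below all other arrays, against at most 89 and 100 on any other array. On it 10 of the 51 tested member probes were at least 2-fold below all other arrays, so results are also given without it. Replicate numbers are slides, each group keeps 1 array position on every slide, and slide 3 has no day 0 control, so position and group cannot be told apart. By Xist and Y-linked probes the day 0 mutants were 3 females and the day 0 controls 2 males, and each day 2 group held 1 male and 2 females, so at day 0 sex and genotype cannot be told apart, and among controls the proportion of males differed between the days.

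Levels of cell type markers differed between the genotypes as well. The mean log2 level of 12 bile duct markers was 1.05 to 1.10 in day 2 mutants, -1.50 to -1.09 in day 2 controls, 0.34 to 0.82 in day 0 mutants and -0.89 to -0.61 in day 0 controls. That of 11 hepatocyte markers was 4.70 to 5.28 in day 2 mutants, 5.67 to 5.88 in day 2 controls, 4.30 to 4.51 in day 0 mutants and 5.07 to 5.70 in day 0 controls. Over both days 10 of the 12 bile duct markers were called higher in mutants and 4 of the 11 hepatocyte markers lower. Markers of blood cells also lay lower in mutants on day 2, and those of erythroid cells and macrophages on day 0 too. The mean of 10 erythroid markers was 2.93 to 3.62 in day 2 mutants and 4.47 to 4.86 in day 2 controls, and 5 of the 10 were called lower on that day (3 over both days). That of 8 macrophage markers was 0.75 to 1.27 in day 2 mutants and 1.54 to 1.74 in day 2 controls (2 called lower), and that of 6 megakaryocyte markers 1.14 to 1.33 in day 2 mutants and 2.15 to 2.34 in day 2 controls (0 called on day 2, and 2 lower over both days). For 10 stellate and fibroblast markers it was 1.71 to 2.43 in day 2 mutants and 1.34 to 1.56 in day 2 controls, with 2 called higher. Albumin, the defining transcript of hepatocytes, read 9.08 to 10.05 over the 11 arrays. In whole liver, fewer cells of a type and less RNA per cell cannot be told apart, and the part of these shifts in the results below was not tested.

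Over both days, weighted equally, 11 of the 51 member probes differed between mutant and control livers in limma's test at a Benjamini-Hochberg adjusted p of 0.05, where 12.6% of the 27089 tested probes did. 5 were higher in mutants (7.3% of all probes) and 6 lower (5.28%). Read by gene from the brightest probe, 10 of 43 genes passed, 4 higher and 6 lower. Of 23 Gst probes 3 were higher and 1 lower, with a median log2 difference of -0.01. Of 11 Sult probes 0 were higher and 4 lower, with a median of -0.75. Of 17 Ugt probes 2 were higher and 1 lower, with a median of -0.87, and the median of all tested probes was -0.055. The classes hold a few genes each and were not tested as lists. Of the 51 probes, 4 had mutants above controls with no overlap on either day (6.37% of all probes) and 8 had them below (6.26%). With pup sex as a covariate 4 passed, Gstt2, Sult1c1, Sult1d1 and Ugt1a9, and those that missed the threshold were Ugt2b35 (adjusted p = 0.108), Ugt2b34 (0.114), Gstm3 (0.196), Gstm1 probe b (0.213), Gstk1 (0.141), Sult1a1 (0.0624), Sult4a1 probe a (0.145) and Ugt3a2 probe a (0.0837). Of all tested probes 1446 passed with pup sex, against 3408 without it. With the slide as a block 7 members passed, 6 higher and 1 lower (Sult1c1), where 2909 of the 27089 tested probes passed. Without mutant day 0 replicate 3, 19 of the 51 passed, 9 higher and 10 lower, and 21.5% of all probes passed.

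**Figure D1:**
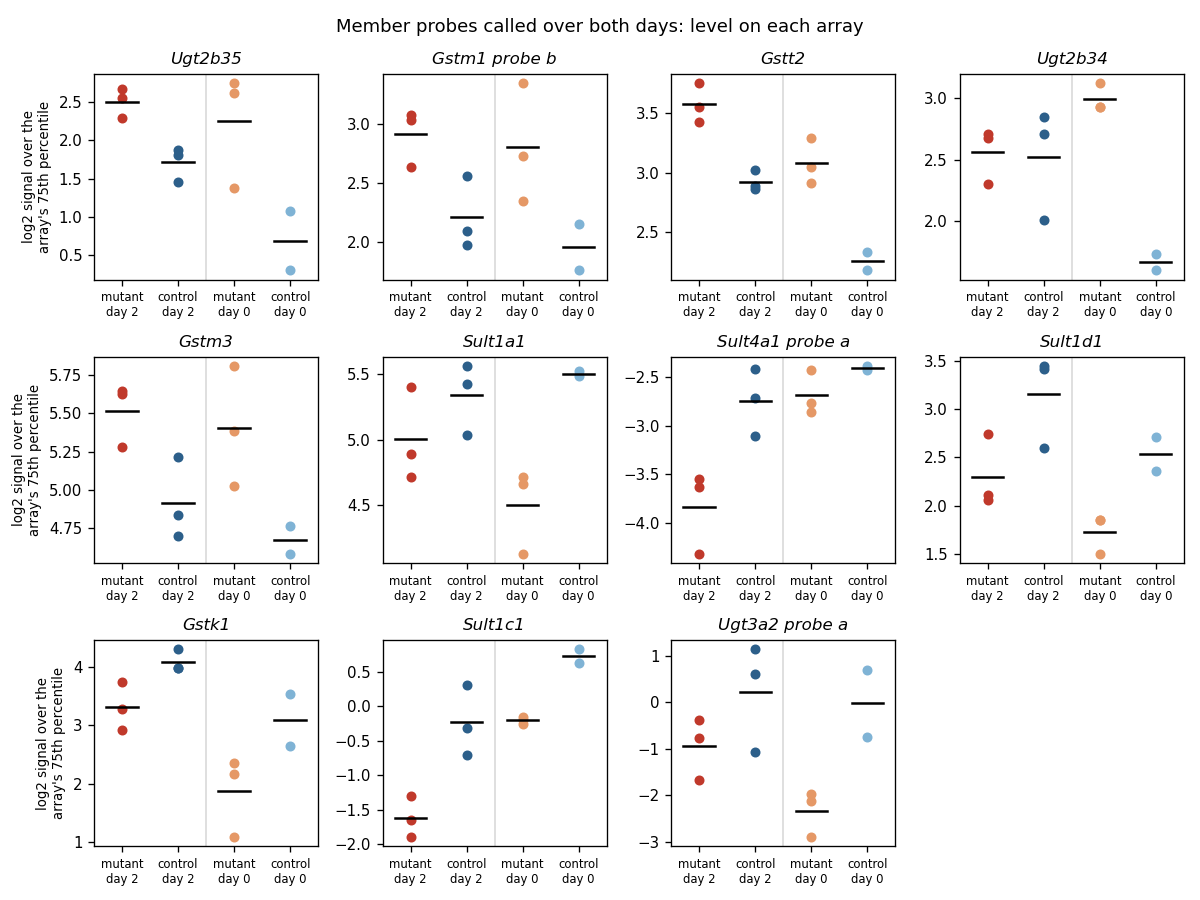
Level on each array (log2 signal over the array's 75th percentile, separate vertical scale per panel) of the 11 member probes that passed the test over both days, in order of their difference. Points are arrays, bars group means, with mutants left of controls and day 2 left of day 0; the Gstt2 points of mutants lie above those of controls on both days and the Sult1c1 points below.

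Among the glutathione transferases, Gstt2, a theta class enzyme, had the smallest p of all members. Its probe (chr10:75276177-75276236, mm8) read 3.42, 3.75 and 3.55 in day 2 mutants, 2.89, 3.02 and 2.86 in day 2 controls, 3.29, 3.04 and 2.91 in day 0 mutants and 2.33 and 2.18 in day 0 controls. Mutants lay above controls on both days with no overlap, differing by 0.74 ± 0.11 SE over both days (adjusted p = 0.00312), a 1.67-fold rise. Within slides 1 to 3 the day 2 difference was 0.53, 0.73 and 0.69, and within slides 1 and 2 the day 0 difference was 0.96 and 0.86. Gstt2 passed over both days in all 21 other settings. The other theta class genes did not pass: the difference was 0.42 ± 0.14 SE for Gstt1 (adjusted p = 0.0842) and 0.22 ± 0.43 SE for Gstt3 (adjusted p = 0.799). Without mutant day 0 replicate 3 Gstt1 passed (0.46, adjusted p = 0.0472) and Gstt3 did not (0.60, adjusted p = 0.0907).

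The mu class genes lie in a cluster on chromosome 3. Gstm3 read 5.28, 5.63 and 5.64 in day 2 mutants, 4.70, 5.21 and 4.83 in day 2 controls, 5.38, 5.81 and 5.02 in day 0 mutants and 4.58 and 4.77 in day 0 controls. It was higher in mutants by 0.67 ± 0.17 SE over both days (adjusted p = 0.0317), with no overlap on either day. Gstm1 was read by 2 probes that agreed in direction. Probe b read 2.64, 3.08 and 3.03 in day 2 mutants, 1.98, 2.56 and 2.10 in day 2 controls, 2.73, 3.34 and 2.35 in day 0 mutants and 1.76 and 2.15 in day 0 controls and passed (0.78 ± 0.20 SE, adjusted p = 0.0362). The brighter probe a read 7.30, 7.62 and 7.55 in day 2 mutants, 7.0, 7.50 and 6.95 in day 2 controls, 7.47, 7.92 and 7.27 in day 0 mutants and 6.73 and 6.98 in day 0 controls, with overlap between the groups of day 2, and did not pass (0.52 ± 0.16 SE, adjusted p = 0.0685). The remaining mu class probes, for Gstm2, Gstm4, Gstm5, Gstm6 and Gstm7, did not pass, with differences from -0.66 (Gstm7 probe b) to 0.29 (Gstm4). Without mutant day 0 replicate 3, Gstm1 probe a (0.59, adjusted p = 0.0272) and Gstm4 (0.42, adjusted p = 0.0293) passed as well.

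Gstk1, the kappa class enzyme of mitochondria and peroxisomes, was the 1 Gst gene that fell. It read 3.27, 2.92 and 3.74 in day 2 mutants, 3.98, 4.30 and 3.97 in day 2 controls, 2.36, 2.17 and 1.10 in day 0 mutants and 2.65 and 3.54 in day 0 controls. Mutants lay below controls on both days with no overlap, and mutant day 0 replicate 3 was the lowest array. The difference was -0.99 ± 0.27 SE over both days (adjusted p = 0.0429) and was -0.80 without that array (adjusted p = 0.0301). With the slide as a block its adjusted p was 0.0868.

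The remaining Gst classes did not pass over both days. The alpha class, whose members also bind bilirubin and steroids, ranged from -0.24 (Gsta3 probe b) to 0.34 (Gsta2). Gsta3 probe a, the brighter of its pair, read 6.92, 7.37 and 7.47 in day 2 mutants, 6.97, 7.34 and 7.41 in day 2 controls, 7.48, 7.78 and 6.16 in day 0 mutants and 7.41 and 7.56 in day 0 controls, and mutant day 0 replicate 3 was the lowest of all 11 arrays. Its difference of -0.17 ± 0.28 SE changed sign under 3 other settings, and probe b did not pass either (adjusted p = 0.554). The 2 probes of Gstp1, the pi class enzyme, gave 0.24 and 0.30 (adjusted p = 0.359 and 0.306). Gstz1, the maleylacetoacetate isomerase of tyrosine breakdown, read 2.93, 3.07 and 3.47 in day 2 mutants, 3.35, 3.59 and 3.91 in day 2 controls, 2.09, 2.32 and 1.45 in day 0 mutants and 2.42 and 2.67 in day 0 controls, and its difference was -0.53 ± 0.19 SE (adjusted p = 0.109). Gsto1, an omega class thiol transferase, was below controls on every mutant array of its day, at 4.95, 5.10 and 5.13 in day 2 mutants, 5.72, 5.82 and 5.18 in day 2 controls, 4.69, 4.90 and 4.94 in day 0 mutants and 5.14 and 5.11 in day 0 controls, but missed the threshold (-0.40 ± 0.14 SE, adjusted p = 0.0919).

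Among the sulfotransferases, Sult1c1 showed the smallest p. It read -1.30, -1.89 and -1.65 in day 2 mutants, 0.31, -0.32 and -0.70 in day 2 controls, -0.20, -0.16 and -0.26 in day 0 mutants and 0.82 and 0.62 in day 0 controls. Every mutant array lay below every control array of its day. Over both days Sult1c1 differed by -1.15 ± 0.19 SE (adjusted p = 0.00405), a 2.22-fold lower level, and it passed in all 21 other settings. Within slides it was -1.61, -1.57 and -0.95 on day 2 and -1.02 and -0.78 on day 0. The probe lies at chr17:53429576-53429635 (mm8), on the chromosome that also carries Sult1c2.

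3 further Sult genes fell. Sult1d1, which sulfates dopamine and other catecholamines in mice, read 2.11, 2.06 and 2.74 in day 2 mutants, 3.41, 3.44 and 2.60 in day 2 controls, 1.51, 1.85 and 1.85 in day 0 mutants and 2.71 and 2.36 in day 0 controls; the third arrays of day 2 overlapped, with the mutant above the control. Its difference was -0.82 ± 0.21 SE (adjusted p = 0.0286). Sult1a1, the phenol sulfotransferase, read 4.89, 4.72 and 5.40 in day 2 mutants, 5.43, 5.56 and 5.04 in day 2 controls, 4.67, 4.72 and 4.13 in day 0 mutants and 5.48 and 5.53 in day 0 controls, and overlapped on day 2 and not on day 0. Its difference was -0.67 ± 0.18 SE (adjusted p = 0.0361). Sult4a1, known from brain and without an established substrate, was read by a dim probe a at -3.55, -4.31 and -3.63 in day 2 mutants, -2.42, -2.72 and -3.1 in day 2 controls, -2.86, -2.77 and -2.44 in day 0 mutants and -2.44 and -2.39 in day 0 controls, with overlap on day 0 only. It fell by 0.68 on the log2 scale (adjusted p = 0.0412). With the slide as a block these 3 missed the threshold, at adjusted p = 0.0642 for Sult1d1, 0.0792 for Sult1a1 and 0.066 for Sult4a1.

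The other Sult genes did not pass over both days. Sult1b1, which sulfates thyroid hormones and phenols, had differences of -0.71 ± 0.26 SE for probe a (adjusted p = 0.11) and -1.07 ± 0.31 SE for probe b (adjusted p = 0.0535). Without mutant day 0 replicate 3 probe b passed (-0.78, adjusted p = 0.00491) and probe a did not (-0.49, adjusted p = 0.052). Sult2b1, which sulfates cholesterol and related sterols, read -4.89, -5.04 and -5.90 in day 2 mutants, -5.03, -5.48 and -5.95 in day 2 controls, -4.43, -5.09 and -4.93 in day 0 mutants and -6.19 and -5.16 in day 0 controls, dim values that overlapped on day 2 and not on day 0 (adjusted p = 0.255). Sult5a1 read -4.07, -5.06 and -4.88 in day 2 mutants, -3.68, -3.05 and -4.39 in day 2 controls, -3.44, -3.50 and -4.72 in day 0 mutants and -3.34 and -3.06 in day 0 controls (adjusted p = 0.137). Sult1c2 and Sult3a1 changed most between the days and are given with them.

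Among the glucuronosyltransferases, the 4 Ugt1 probes had differences below 0 over both days and none passed. In the Ugt1 locus of chromosome 1 alternative first exons are joined to shared exons, and each first exon defines an enzyme. Ugt1a1, the bilirubin enzyme, read 0.32, -1.04 and 0.25 in day 2 mutants, 1.44, 1.51 and 0.48 in day 2 controls, 1.44, 1.48 and -1.87 in day 0 mutants and 1.95 and 1.11 in day 0 controls; its difference was -1.24 ± 0.62 SE (adjusted p = 0.238), and -0.68 without mutant day 0 replicate 3, the lowest array (adjusted p = 0.191). The brighter of 2 probes named Ugt1a6b, probe a at chr1:90050068-90050127 (mm8), lies 6533 bases 3′ of the Ugt1a1 probe, and which Ugt1a transcripts it reads was not tested. It read 5.60, 4.94 and 5.67 in day 2 mutants, 6.60, 6.48 and 6.00 in day 2 controls, 6.59, 6.40 and 4.77 in day 0 mutants and 6.73 and 6.45 in day 0 controls, and on day 2 every mutant lay below every control (-0.81 ± 0.33 SE over both days, adjusted p = 0.145). Probe b differed by -0.29 ± 0.17 SE (adjusted p = 0.316), so the 2 probes did not show the same size.

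The Ugt2 genes lie with Sult1b1, Sult1d1 and Sult1e1 in a cluster on chromosome 5, where the probes of 12 genes span 686 kb (chr5:87965089-88650782, mm8). 2 of them rose over both days. Ugt2b35 read 2.29, 2.66 and 2.55 in day 2 mutants, 1.46, 1.88 and 1.80 in day 2 controls, 2.61, 2.74 and 1.38 in day 0 mutants and 1.08 and 0.30 in day 0 controls, with mutants above controls on both days and no overlap. Its difference was 1.17 ± 0.27 SE (adjusted p = 0.0196), 2.25-fold. Ugt2b34 read 2.30, 2.68 and 2.71 in day 2 mutants, 2.01, 2.71 and 2.85 in day 2 controls, 2.93, 3.12 and 2.93 in day 0 mutants and 1.74 and 1.60 in day 0 controls, so that the groups overlapped on day 2 and were far apart on day 0. Its contrast over both days came to 0.68 ± 0.17 SE (adjusted p = 0.0275). Both lie at the same end of the cluster, with Ugt2b1 between them. Ugt2b1 read -2.20, -2.95 and -2.16 in day 2 mutants, 0.50, -0.22 and -1.06 in day 2 controls, -2.92, -2.82 and -5.71 in day 0 mutants and -3.65 and -2.59 in day 0 controls, with mutants below controls on day 2 and overlap on day 0, and did not pass (-1.43 ± 0.55 SE, adjusted p = 0.127).

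Ugt2a3 and Ugt2a1 had differences below 0 on both days and did not pass. Ugt2a3, a member expressed in liver and gut, read -0.69, -1.33 and -0.093 in day 2 mutants, 0.37, 0.95 and 0.35 in day 2 controls, -1.66, -1.42 and -5.04 in day 0 mutants and -1.09 and -0.095 in day 0 controls, with no overlap on either day (-1.69 ± 0.62 SE, adjusted p = 0.114). Ugt2a1, known as an enzyme of olfactory epithelium, gave -1.79 ± 0.65 SE by probe a (adjusted p = 0.111) and -1.16 ± 0.35 SE by probe b (adjusted p = 0.0619). Mutant day 0 replicate 3 was the lowest array for all 3 of these probes, at -7.88 for Ugt2a1 probe a. Without it they passed, at smaller differences of -1.19, -0.90 and -1.10 for Ugt2a1 probe a, Ugt2a1 probe b and Ugt2a3. Ugt3a2 was the 1 Ugt gene that fell. Its probe a read -0.38, -1.67 and -0.77 in day 2 mutants, 1.14, 0.60 and -1.07 in day 2 controls, -2.12, -1.97 and -2.89 in day 0 mutants and -0.74 and 0.70 in day 0 controls, with the third control of day 2 among the mutants. The difference was -1.74 ± 0.45 SE (adjusted p = 0.0352, and 0.06 with the slide as a block). The dim probe b was well above background on 6 of the 11 arrays and on 0 of the 3 of day 0 mutants, and did not pass (adjusted p = 0.0581).

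**Figure D2:**
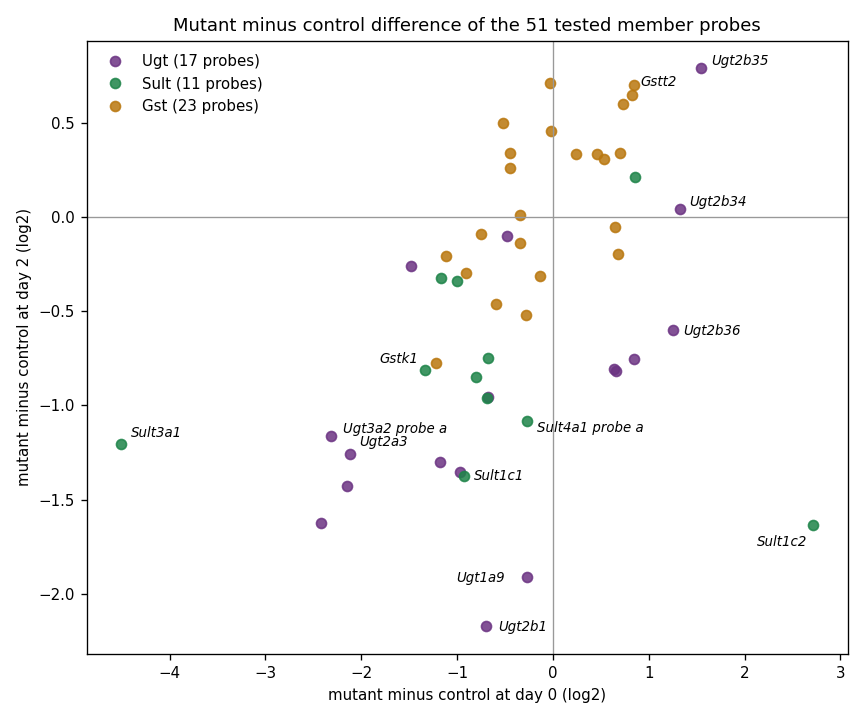
Mutant minus control difference (log2) of each of the 51 tested member probes at day 0 (horizontal) and day 2 (vertical), coloured by class. Gstt2 and Ugt2b35 lie above 0 on both axes, Sult1c2 lies far right and below 0, and Sult3a1 far left.

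On day 2 alone, 4 of 51 member probes passed (13.1% of all tested probes did), 1 higher (8.08%) and 3 lower (4.98%). Gstt2 was higher by 0.65 ± 0.15 SE (adjusted p = 0.0228). Sult1c1 was lower at -1.38 ± 0.25 SE (adjusted p = 0.00714), as was Sult4a1 probe a at -1.08 ± 0.25 SE (adjusted p = 0.0195). The fourth was Ugt1a9, a phenol enzyme of the Ugt1 locus, whose dim probe read -6.67, -5.96 and -5.41 in mutants and -3.56, -3.76 and -4.99 in controls. It was well above background in 2 of the 3 mutants and in all 3 controls, and the difference was -1.91 ± 0.47 SE (adjusted p = 0.0277). All 3 mutants lay below all 3 controls, with within-slide differences of -3.11, -2.20 and -0.42. Of the 51 probes, 4 had mutants above controls with no overlap (19.5% of all probes) and 20 had mutants below (23.5%), and the medians were 0.26 for Gst, -0.85 for Sult and -0.96 for Ugt, against -0.097 over all tested probes.

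The day 2 count was larger without mutant day 0 replicate 3, an array that enters this comparison only through the shared estimate of the spread. Then 18 of 51 passed, 3 higher and 15 lower, while 25.2% of all probes did. The 3 higher were Gstt2, Gstm3 and Ugt2b35. The 15 lower were both probes of Sult1b1, Sult1c1, Sult1c2, Sult4a1 probe a, Ugt1a6b probe a, Ugt1a9, both tested probes of Ugt2a1, Ugt2a3, Ugt2b1, Ugt2b5, Ugt2b36, Ugt2b37 and Ugt2b38. The largest of these was Ugt2b1, with -2.20, -2.95 and -2.16 in mutants and 0.50, -0.22 and -1.06 in controls, a difference of -2.17 (adjusted p = 0.00778 without that array and 0.0843 with it).

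On the day of birth, 3 of 51 member probes passed (1.7% of all tested probes did), all 3 higher in mutants (1.23%). Sult1c2 had the largest difference. It read -1.56, -2.91 and -1.53 in day 0 mutants and -5.45 and -3.99 in day 0 controls, so every mutant lay above both controls, by 2.72 ± 0.56 SE (adjusted p = 0.0472), 6.57-fold. Within slides the difference was 3.88 and 1.08, so the size differed between slides. Ugt2b34 was higher by 1.32 ± 0.25 SE (adjusted p = 0.0343), and Gstt2 by 0.83 ± 0.17 SE (adjusted p = 0.048). Without mutant day 0 replicate 3, Sult1c2 missed the threshold (adjusted p = 0.0664) and Ugt2b35, Ugt2b36 and Ugt2b38 passed, at 1.98, 1.78 and 1.39. With pup sex as a covariate 28 of the 27089 tested probes passed on day 0, and with the slide as a block 318, against 460 with neither. None of the 3 members of the main fit passed with pup sex, at adjusted p = 0.543 for Sult1c2, 0.343 for Ugt2b34 and 0.597 for Gstt2. With the block none of them did, at 0.118, 0.0578 and 0.0917.

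The largest day 0 difference in the other direction was that of Sult3a1, the Sult3 member of the array. It read -3.31, -3.98 and -7.06 in day 0 mutants and -2.29 and 1.74 in day 0 controls. Both controls lay above all 3 mutants, but the 2 controls were far apart and the difference of -4.50 ± 1.31 SE did not pass (adjusted p = 0.151). The 3 Ugt3 probes also lay below controls without overlap on day 0 (14.6% of all tested probes did so). The difference was -1.49 for Ugt3a1 and -2.31 for Ugt3a2 probe a, and Ugt3a2 probe b, not well above background in day 0 mutants, was at least 2.52-fold lower there; none passed (adjusted p = 0.34, 0.154 and 0.268).

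Whether the genotype effect differed between the days was tested directly. No member probe passed (0 of 51, against 0.196% of all tested probes, 0.174% upward and 0.0221% downward), and 8 had an unadjusted p under 0.05 in limma, all with the lower difference on day 2 (5.83% of all tested probes had such a p in that direction, and 13.1% in either). These were Sult1c2, Ugt2b34, Ugt2b36, Ugt2b5, Ugt2b38, Ugt2b37, Ugt1a9 and Gstp1 probe a. Sult1c2 came nearest: mutants were above controls on day 0 and below them on day 2, where they read 0.048, -0.0066 and 1.25 in mutants and 2.11, 2.28 and 1.80 in controls, and the difference of the 2 effects was -4.35 ± 0.75 SE (adjusted p = 0.0627). Ugt2b36 did the same, with 4.05, 3.56 and 4.25 in day 2 mutants, 4.57, 4.63 and 4.47 in day 2 controls, 3.87, 3.78 and 2.26 in day 0 mutants and 2.20 and 1.90 in day 0 controls (-1.85 ± 0.58 SE, adjusted p = 0.241). Without mutant day 0 replicate 3, 3 members passed (1.07% of all probes did): Ugt2b36 at -2.38 (adjusted p = 0.0178), Ugt2b38 at -2.14 (0.0393) and Ugt2b5 at -1.97 (0.0485). These are 3 of the 4 genes whose promoter windows share the 22-base run. Those 4 were chosen within the chromosome 5 cluster by the order of their group means. That order by itself makes the difference between the days negative, so the overlap is no separate result.

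**Figure D3:**
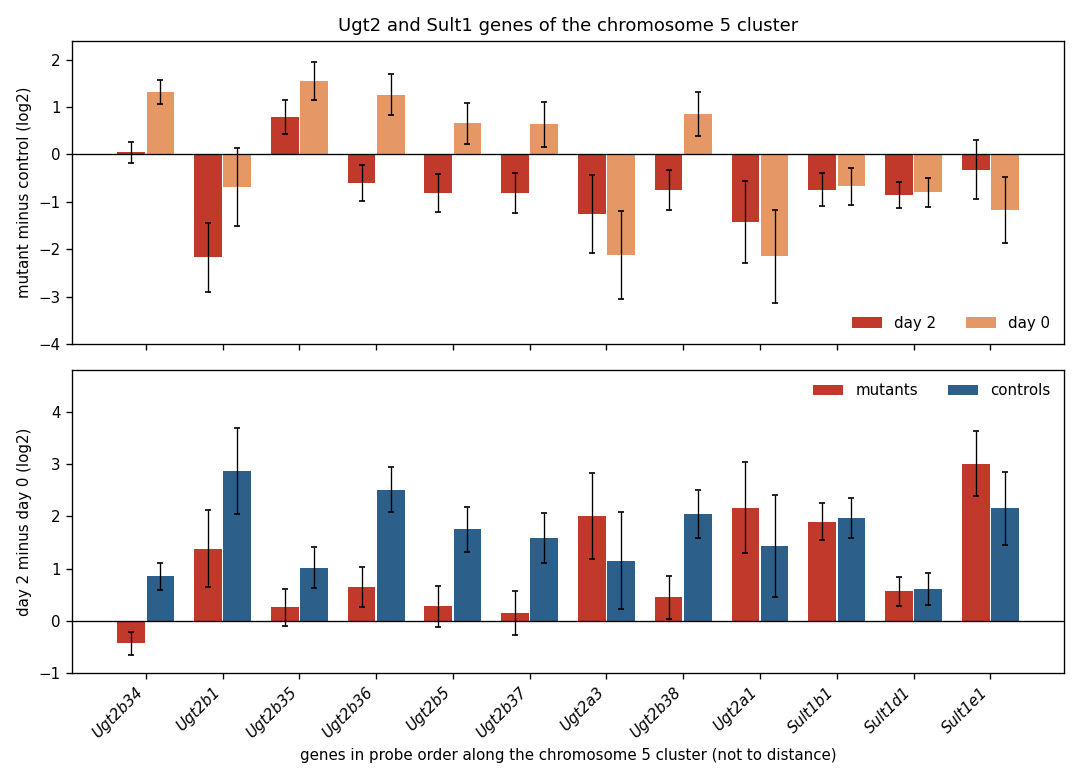
Differences (log2, bars with SE) of the 12 Ugt2 and Sult1 genes of chromosome 5 in probe order, 1 probe a gene. Above, mutant minus control on day 2 and day 0; below, day 2 minus day 0 in mutants and controls. Ugt2b36, Ugt2b5, Ugt2b37 and Ugt2b38 lie below 0 on day 2 and above 0 on day 0, and have a larger change with age in controls than in mutants.

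Changes from birth to day 2 were tested within each genotype. In mutants 13 of 51 probes passed (18.9% of all tested probes), 9 up (8.2%) and 4 down (10.7%). In controls 12 of 51 passed (9.51%), 11 up (4.33%) and 1 down (5.18%). Read by gene, 8 genes rose in mutants and 10 in controls, and 5 rose in both, which is 62.5% of the mutant list and 50% of the control list: Gsta2, Gstz1, Sult1b1, Sult1c2 and Ugt1a9. Sult3a1 fell in both, and was 1 of the 4 genes that fell in mutants and the 1 that fell in controls. Its fall in mutants passed in 6 of 20 other settings. With pup sex as a covariate Sult3a1 missed the threshold in mutants (adjusted p = 0.1) and in controls (0.0644). Gstz1 and Sult1b1 probe a then missed it in controls, at 0.158 and 0.0883. No arrays are shared between the 2 comparisons. A gene that passed in 1 genotype alone is not shown to differ between them, since no member passed the test of the difference.

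**Figure D4:**
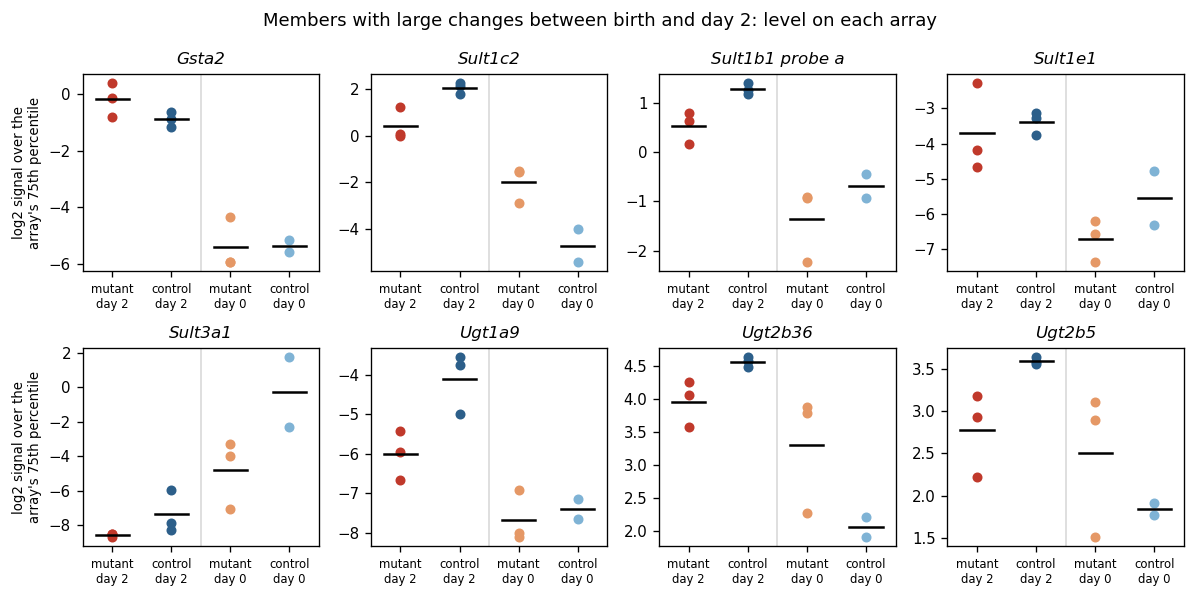
Level on each array (log2 signal over the array's 75th percentile, separate vertical scale per panel) of 8 members with large changes between birth and day 2. Points are arrays and bars group means; Gsta2 is higher on every day 2 array than on any day 0 array, Sult3a1 is lower on every day 2 array than on the day 0 arrays of its genotype, and Sult1c2 is lowest in the 2 day 0 controls.

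Gsta2 rose most in mutants. It read -0.80, -0.13 and 0.40 in day 2 mutants, -1.16, -0.63 and -0.88 in day 2 controls, -5.94, -5.92 and -4.34 in day 0 mutants and -5.59 and -5.15 in day 0 controls, and all day 2 arrays lay far above all day 0 arrays. The change was 5.22 ± 0.45 SE in mutants (adjusted p = 0.000341), 37.4-fold, and 4.48 ± 0.50 SE in controls (adjusted p = 0.00191), 22.3-fold. On day 0 its probe was well above background in 2 of 3 mutants and 1 of 2 controls. Under other settings the change of Gsta2 ran from 3.17 to 5.8 in mutants and from 2.57 to 4.7 in controls. The probe of its near relative Gsta1, with 1 mismatch in the 28 bases shown above, read 3.87, 4.21 and 4.54 in day 2 mutants, 3.54, 3.84 and 4.23 in day 2 controls, 4.12, 4.04 and 2.18 in day 0 mutants and 4.18 and 3.61 in day 0 controls and did not pass in either genotype, with a change of 0.76 in mutants and -0.029 in controls; without mutant day 0 replicate 3, the lowest array, the change in mutants was 0.13.

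Sult1c2 rose most in controls. Its change was 6.78 ± 0.56 SE in controls (adjusted p = 0.000523), 110-fold, and 2.43 ± 0.50 SE in mutants (adjusted p = 0.0124), 5.4-fold. The day 0 controls were the lowest arrays and the day 2 controls the highest, with both mutant groups between them. Sult3a1 fell, with a fitted difference of -3.79 ± 1.17 SE in mutants (adjusted p = 0.0497) and -7.09 ± 1.31 SE in controls (adjusted p = 0.0132). It read -8.49, -8.52 and -8.70 in day 2 mutants and -8.28, -5.94 and -7.87 in day 2 controls, and on no day 2 array was it well above background. Against the weakest signal measured above background on those arrays, it was at least 2.9-fold lower on day 2 in mutants and at least 53.5-fold lower in controls.

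Sult1b1 rose in both genotypes by probe a, which read 0.64, 0.17 and 0.81 in day 2 mutants, 1.27, 1.42 and 1.18 in day 2 controls, -0.91, -0.92 and -2.24 in day 0 mutants and -0.93 and -0.43 in day 0 controls. The change was 1.90 ± 0.35 SE in mutants and 1.97 ± 0.39 SE in controls (adjusted p = 0.00784 and 0.0169), with no overlap between the days. Sult1e1, the oestrogen sulfotransferase, read -4.68, -4.18 and -2.27 in day 2 mutants, -3.76, -3.27 and -3.12 in day 2 controls, -7.38, -6.19 and -6.57 in day 0 mutants and -4.78 and -6.31 in day 0 controls. It passed in mutants, where no day 0 array was above background and day 2 was at least 5.18-fold higher (adjusted p = 0.0127), and missed the threshold in controls (adjusted p = 0.0815). Ugt1a9 was not above background on any day 0 array, at -8.12, -6.92 and -8.01 in mutants and -7.66 and -7.16 in controls. It was at least 1.07-fold higher on day 2 in mutants (adjusted p = 0.0378) and at least 4.32-fold higher in controls (adjusted p = 0.00766). In mutants it missed the threshold without mutant day 0 replicate 3 (adjusted p = 0.083).

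3 of the Ugt2b genes whose promoter windows are shown above rose in controls and did not pass in mutants. A larger change in controls follows from the order of group means by which the 4 genes were chosen within their cluster. Ugt2b36 changed by 2.51 ± 0.43 SE in controls (adjusted p = 0.0099), 5.68-fold, and by 0.65 in mutants (adjusted p = 0.244). Ugt2b38 read 3.59, 2.90 and 3.75 in day 2 mutants, 4.16, 4.17 and 4.17 in day 2 controls, 3.63, 3.39 and 1.87 in day 0 mutants and 2.30 and 1.94 in day 0 controls and rose by 2.05 in controls (adjusted p = 0.0277). Ugt2b5 read 2.93, 2.22 and 3.18 in day 2 mutants, 3.59, 3.56 and 3.64 in day 2 controls, 3.1, 2.89 and 1.51 in day 0 mutants and 1.91 and 1.78 in day 0 controls and rose by 1.75 (adjusted p = 0.0381). With pup sex as a covariate 445 of the 27089 tested probes passed in controls, against 2577 without it. None of the 3 genes passed then, at adjusted p = 0.0596 for Ugt2b36, 0.111 for Ugt2b38 and 0.13 for Ugt2b5. In all 3 the day 2 controls were the highest arrays, and the day 0 controls were below at least 2 of the 3 day 0 mutants. In Ugt2b37, the fourth of these genes, the change in controls missed the threshold (1.58, adjusted p = 0.0651). Of the 10 tested Ugt2 probes, 10 were higher on day 2 in controls with no overlap, where 26.6% of all tested probes were, with a median change of 1.51. In mutants 2 of 10 were, where 19.4% of all tested probes were, with a median of 0.55, and without mutant day 0 replicate 3 that median was 0.018, with 5 of the 10 below 0. The medians of all tested probes were -0.027 in mutants and -0.041 in controls. Without mutant day 0 replicate 3, 23 of 51 members passed in controls, 20 of them up, and 24.4% of all probes passed.

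Other members that rose passed in 1 genotype. In mutants these were Gstt3 (1.92, adjusted p = 0.0433, and 1.16 without mutant day 0 replicate 3), Gstk1 (1.43, adjusted p = 0.0268) and Sult1b1 probe b (1.89, adjusted p = 0.0161). With pup sex as a covariate Gstt3 and Gstk1 missed the threshold, at adjusted p = 0.0838 and 0.0532, and with the slide as a block Gstt3 did, at 0.0606. In controls these were both probes of Gstp1 (0.93 and 0.94, adjusted p = 0.0371 and 0.0471) and Gstt2 (0.67, adjusted p = 0.0412). None of these passed in controls with pup sex as a covariate, at adjusted p = 0.175 and 0.177 for Gstp1 and 0.2 for Gstt2. Gstp1 probe a read 6.79, 7.09 and 7.23 in day 2 mutants, 6.99, 7.43 and 7.28 in day 2 controls, 6.78, 6.82 and 7.37 in day 0 mutants and 6.29 and 6.33 in day 0 controls, so that the day 0 controls were below all other arrays. Gstz1 rose by 1.20 in mutants and 1.07 in controls. The members that fell in mutants besides Sult3a1 were Sult1c1 (-1.41, adjusted p = 0.0073), Sult4a1 probe a (-1.14, adjusted p = 0.0149) and Gstt1, which read 0.32, 0.63 and 0.82 in day 2 mutants, 0.028, 0.55 and 0.26 in day 2 controls, 1.57, 1.58 and 1.34 in day 0 mutants and 1.06 and 0.87 in day 0 controls (-0.91, adjusted p = 0.0124). In controls Sult1c1 and Gstt1 missed the threshold, at -0.96 and -0.69 (adjusted p = 0.0618 and 0.0689).

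**Figure D5:**
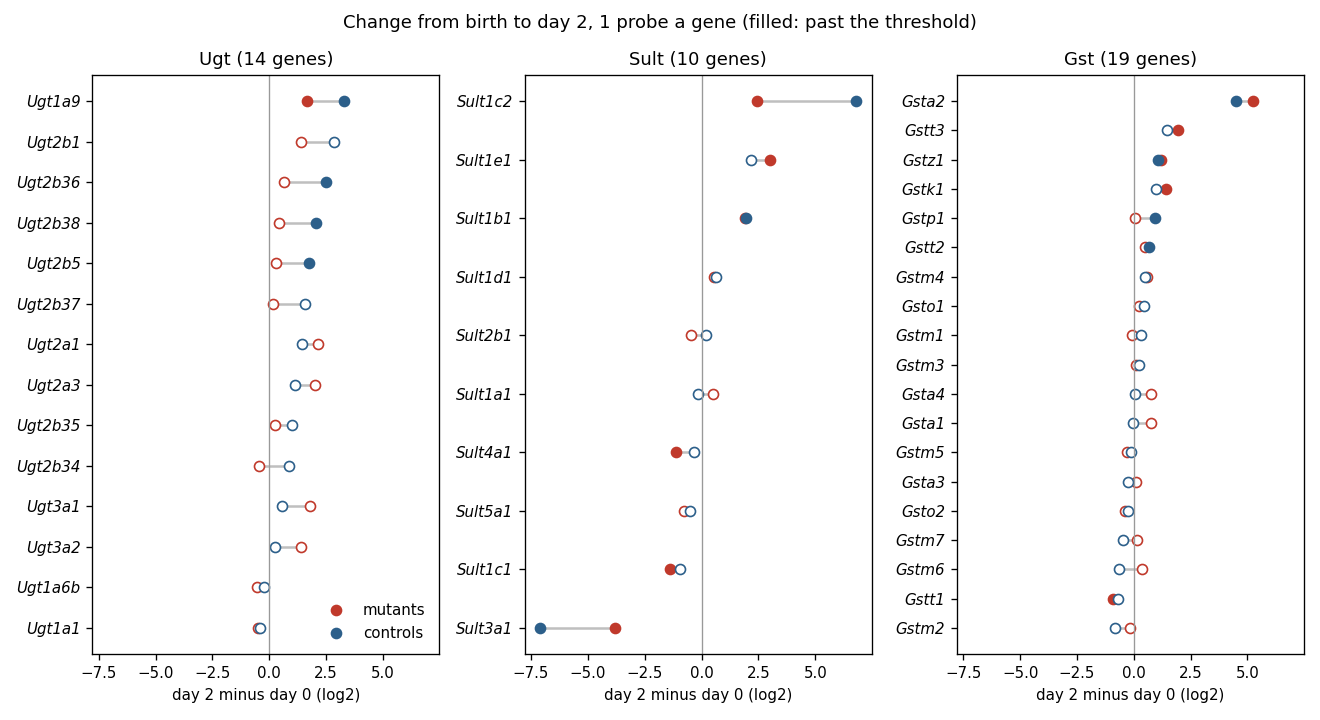
Fitted change from day 0 to day 2 (log2) of the 43 member genes, 1 probe a gene, in mutants and controls; filled points passed the test in that genotype. The values of Sult3a1, Sult1e1 and Ugt1a9 rest on arrays at background and are fitted values, not sizes. Those of Gsta2 rest on such arrays in part. Gsta2 lies far right in both genotypes, and Sult1c2 further right in controls than in mutants.

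20 of the 43 genes passed in none of the 6 comparisons by their brightest probe. These were Gsta1, Gsta3, Gsta4, Gstm1, Gstm2, Gstm4, Gstm5, Gstm6, Gstm7, Gsto1, Gsto2, Sult2b1, Sult5a1, Ugt1a1, Ugt1a6b, Ugt2a1, Ugt2a3, Ugt2b1, Ugt2b37 and Ugt3a1. The 3 untested probes were further probes of Gsto2, Sult4a1 and Ugt2a1.

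The enzymes and carriers that supply the 3 classes were taken from lists chosen with knowledge of earlier results of these arrays. Of 8 tested genes of sulfate donor supply, 4 were higher in mutants over both days (7.3% of all tested probes were) and 1 lower (5.28%), with a median of 0.40. Papss1, which makes the sulfate donor PAPS, read 1.46, 1.74 and 1.40 in day 2 mutants, -0.47, -0.27 and -0.18 in day 2 controls, 1.13, 1.08 and -0.021 in day 0 mutants and 0.29 and 0.031 in day 0 controls, with no overlap on day 2 (1.20, adjusted p = 0.00625). The PAPS carriers Slc35b2 (0.60, adjusted p = 0.00548) and Slc35b3 (0.54, adjusted p = 0.0151) and the sulfate transporter Slc26a2 (0.59, adjusted p = 0.0205) were higher too. Papss2, the other PAPS synthase, went the other way (-0.96, adjusted p = 0.0296). The sulfotransferases themselves were lower or did not pass over both days.

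Of 12 tested genes of glutathione synthesis and turnover, 2 were higher (against 7.3% of all tested probes) and 1 lower (against 5.28%), with a median of -0.23, and for so few genes 3 of 12 is not far from the 12.6% of all probes called. Gclc, the catalytic subunit of the rate-limiting enzyme of glutathione synthesis, read 4.31, 4.12 and 4.45 in day 2 mutants, 3.03, 2.94 and 2.90 in day 2 controls, 3.37, 3.09 and 3.18 in day 0 mutants and 2.51 and 2.30 in day 0 controls. Mutants were above controls on both days with no overlap, by 1.07 (adjusted p = 0.000289). Of the trans-sulfuration enzymes, Cbs was higher (0.86, adjusted p = 0.0228) and Cth lower (-0.93, adjusted p = 0.0481). Of 4 genes of UDP-glucuronic acid supply, Ugdh, which oxidises UDP-glucose to that donor, was higher (0.68, adjusted p = 0.0262). Of 6 microsomal glutathione transferases and relatives, Mgst2 was higher (0.58, adjusted p = 0.0444).

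Of 17 tested regulators of these genes, 3 were lower (against 5.28% of all tested probes) and 1 higher (against 7.3%), with a median of -0.48. Nr1i3, the receptor CAR that induces Ugt1, Sult and Gst genes after drug exposure, read -0.89, -2.08 and -0.67 in day 2 mutants, 0.87, 0.70 and 0.29 in day 2 controls, -2.23, -2.01 and -1.96 in day 0 mutants and 0.27 and 0.078 in day 0 controls, below controls without overlap on both days (-2.04, adjusted p = 0.000785). Its partner Rxra (-0.83, adjusted p = 0.0163) and Ppara (-0.77, adjusted p = 0.0153) were lower, and Foxa1 higher (0.95, adjusted p = 0.0216). Of 9 other targets of Nr1i3 and Ahr, 2 were lower, Cyp1a2 (-2.03, adjusted p = 0.0127) and the P450 reductase Por (-0.72, adjusted p = 0.00745). Of 7 other targets of Nfe2l2, 1 was higher, malic enzyme Me1 (1.46, adjusted p = 0.0327). Of 10 other conjugating enzymes 1 was lower, the amine methyltransferase Inmt (-3.06, adjusted p = 0.0237), of 7 exporters 1 was higher, Abcc5 (0.76, adjusted p = 0.00259), and of 5 enzymes that remove conjugates none passed.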

How the data were processed

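Agilent whole mouse genome arrays (design 014868) read the liver RNA of 11 newborn mice. Per the labels' protocols the RNA came from Qiagen columns and was amplified linearly with Cy3 labelling. The authors deposited 1 file per array from Agilent Feature Extraction 9.5.3.1, whose processed signal is an intensity that, per the file headers, had its background subtracted and was detrended. They also deposited log2 values, made with RMA per the submitters' processing notes (settings not given in the sources used here), which hold 52 of the 54 member probes. Precision is limited by the number of arrays.

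Each processed signal was taken as log2 and lowered by its array's 75th percentile over non-control spots. Control spots and spots flagged as outliers were left out (12 member spots, all of Gsta4), and repeated spots were averaged. No member spot was saturated. Tests covered probes well above background throughout 1 or more groups with a value in each group, 27089 of 41174. limma 3.58.1 (R 4.3.3, package data.table, version 1.17.8) fitted 4 group coefficients, on 7 residual degrees of freedom (2.53 prior), with Benjamini-Hochberg adjustment over all tested probes. Genes were read from the brightest probe. A fold against a group with no array well above background is a bound, set at the weakest signal above background there. The steps were tested on simulated data. Promoter windows came from RefSeq (GRCm38.p6), and probe positions are those of the files (mm8).

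The members, gene lists and tests were chosen with earlier results of these data known. Values per array are printed for the probe with the smallest p and the brightest probe of each subfamily and for called members, 12 at most per comparison; listed genes outside the classes were named when they passed over both days, 4 at most per list by smallest p. For sulfate donor supply Papss2 was named as the fifth, since it was the 1 that was lower. Further members were named after their values were seen.

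Same-numbered mutant and control arrays of day 2 deviated together from their group means (correlations of 0.285, 0.211 and 0.259 across probes, against -0.225 to -0.0376 for other numbers), so the numbers pair the arrays of that day; for day 0 they were 0.050 and 0.090. Alternatives were another background correction, scaling, other filters, 1 probe per gene, the authors' table, slide as a block, pup sex, an intensity trend and leaving out each array.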

Additional observations from a re-analysis of the deposited data

Results flagged for a closer look

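2 members had every mutant array on opposite sides of every control array on the 2 days. For Sult1c2 the effect on day 2 minus that on day 0 was -4.35 on the log2 scale: mutants were at 0.048, -0.0066 and 1.25 against 2.11, 2.28 and 1.80 in controls on day 2, and at -1.56, -2.91 and -1.53 against -5.45 and -3.99 on day 0. For Ugt2b36 it was -1.85, with mutants at 4.05, 3.56 and 4.25 against 4.57, 4.63 and 4.47 in controls on day 2, and at 3.87, 3.78 and 2.26 against 2.20 and 1.90 on day 0. The differences between the days did not pass limma's test (adjusted p = 0.0627 for Sult1c2 and 0.241 for Ugt2b36); without mutant day 0 replicate 3 that of Ugt2b36 did (-2.38, adjusted p = 0.0178) and that of Sult1c2 did not (adjusted p = 0.0551).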

How the results depend on the processing

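The counts of member probes past the threshold moved with the processing more than the directions did. The number of all tested probes past it moved too. Over both days it was 3408 of 27089 in the main fit, 3194 under normexp background correction and 1446 with pup sex. It was 2642 of 41112 with no filter and 5819 of 27073 without mutant day 0 replicate 3. On day 2 it was 3538 of 27089, 3384 under normexp, 3083 of 26998 in the authors' table and 6832 of 27073 without that array. The counts of members follow. Over both days (11 probes) 17 passed under the normexp background correction, 5 with no filter on dim probes, 7 with replicate number as a block, 4 after adjusting for pup sex, and from 2 to 19 when 1 array was left out. On day 2 (4 probes) 9 passed under normexp and 8 in the authors' table, and from 1 to 18 with 1 array left out. On day 0 (3 probes) 1 passed under median scaling, and 0 with no filter, with the block or with pup sex, and from 0 to 5 with 1 array left out. For the difference between the days (0 probes) 1 passed with an intensity trend, and from 0 to 3 with 1 array left out. For day 2 against day 0, from 7 to 15 passed in mutants (13 probes) with 1 array left out; in controls (12 probes) 7 passed under quantile normalization, 7 with no filter and 3 with pup sex, and from 3 to 23 with 1 array left out. In each of these 6 comparisons the highest count with 1 array left out came without mutant day 0 replicate 3. Of all probes 460 passed on day 0, 386 under median scaling, 318 with the block, 28 with pup sex and 285 of 41112 with no filter. For the difference between the days 53 passed, and 59 with an intensity trend. For day 2 against day 0, 5132 passed in mutants. In controls 2577 did, 1857 under quantile normalization, 445 with pup sex and 1585 of 41112 with no filter. Without mutant day 0 replicate 3 the shares were 4.1%, 1.07%, 20.1% and 24.4%.

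Single members passed over both days in these shares of the other settings: Gstt2 and Sult1c1 in 21 of 21, Ugt2b35 in 18, Ugt2b34 in 14, Sult1d1 in 13, Ugt3a2 probe a in 12, Gstm3 in 11, and Gstk1, Sult1a1 and Sult4a1 probe a in 10 of 21, with Gstm1 probe b in 10 of 20. Of all 1180 values of named members under other settings, 4 changed sign: Ugt1a9 between the days in mutants under normexp (-0.22, a probe at background on day 0), and Gsta3 probe a over both days, which never passed, under quantile normalization (0.0058), in the authors' table (0.046) and without mutant day 0 replicate 3 (0.079, the highest with 1 array left out, where the lowest was -0.33). With the block, besides the changes given above, Gstt3 in mutants (adjusted p = 0.0606) and Gstt2, Gstz1 and Ugt2b5 in controls (0.0615, 0.0816 and 0.0568) missed the threshold between the days and Gstm1 probe a passed over both days (0.0279). Median scaling moved the median of all probes by 0.18 in mutants and 0.20 in controls between the days; each other scaling moved it by under 0.1. Where an array was left out of the day 0 controls, 1 control remained and is assumed to vary like the other groups.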
